A study of Mus musculus with 15 samples.

Results

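The 33 genes described here carry symbols that begin with Ube2, the family name of most E2 enzymes. They were taken from the deposited tables as every gene whose identifier mapped to such a symbol, without pseudogenes and without genes under an expected count of 10 in every library. Of 55416 genes in the tables, 43 had a Ube2 symbol. The pseudogenes Ube2d-ps, Ube2l3-ps1 and Ube2n-ps1 were left out, as were 7 genes listed at 0 in every library (Ube2d2b, Ube2d4, Ube2dnl1, Ube2dnl2, Ube2nl, Ube2u and Ube2uos). All 33 genes had counts high enough to be tested. Ube2cbp, which is also called Ube3d, shares the symbol as a binding partner of Ube2c and is a ligase, not an E2.

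Ubiquitin is attached to proteins in a relay. An E1 enzyme activates it, an E2 enzyme carries it as a thioester, and an E3 ligase brings the loaded E2 to the protein to be marked. The E2 often sets which chain is built, and so whether the marked protein goes to the proteasome or is given another fate. Some E2 enzymes carry ubiquitin-like proteins instead: Ube2m and Ube2f carry NEDD8, and Ube2l6 carries ISG15. In wasting skeletal muscle, ubiquitin-dependent breakdown of muscle proteins is a known route of protein loss, with the ligases Trim63 and Fbxo32 as its usual markers and Ube2b as a classical E2 of the pathway.

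Expression was measured by bulk RNA sequencing of the tibialis anterior, a hind limb muscle, of male C57BL/6 mice (C57BL/6NCrlOri) entered at 6 to 8 weeks of age. Mice of 3 groups carried KrasIKKaL tumour cells delivered through the trachea and were injected intraperitoneally with isotype IgG (rat IgG2b, n = 4 libraries), with anti-PD-L1, which blocks a checkpoint ligand (200 µg/kg, 3 times a week, n = 3), or with anti-CD8a, directed at the coreceptor of cytotoxic T cells (200 µg, 3 times a week, n = 3). Control mice (n = 5) had no tumour, and no antibody is named for them, so tumour and antibody cannot be told apart in any comparison with control. Nothing in the labels ties a library to its own animal, and the p-values therefore measure only the spread between these libraries, which may be technical.

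Library totals were 15894822 to 22459370 expected counts. Muscle fibre markers (Acta1, Ckm and 6 others) summed to between 71096 and 133141 CPM (counts scaled to library size) in the 15 libraries, and 8 T cell markers to between 0.063 and 3.51 CPM. Mitochondrial genes took 12.8% to 16.7% of the counts in IgG, 11.1% to 14.4% in anti-PD-L1, 20.2% to 23.1% in anti-CD8a and 17.6% to 23.0% in control libraries. On the first principal component of all genes (56.1% of the variance), IgG replicate 2 lay nearest to control of the IgG libraries, and anti-PD-L1 replicate 2 lay farthest from control of its group. Results that turn on these 2 libraries are given with and without them.

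Levels of different members were set side by side as TPM, the deposited value per transcript length. Ube2b, a Rad6-type E2 of the N-degron pathway, which degrades proteins by their terminal residue, was the most abundant, with a mean of 387 TPM over the 15 libraries. Ube2d3, an E2 that starts chains with many ligases, followed at 193 TPM, and its close relative Ube2d1 at 105 TPM. Ube2v1, a catalytically inactive partner of Ube2n, averaged 79.7 TPM, and Ube2m, the main NEDD8 carrier, 72.7 TPM. These 5 genes held 52.7% ± 1.88 of the summed TPM of the 33 in IgG libraries (SD, n = 4), 53.2% ± 1.32 with anti-PD-L1 (n = 3), 51.3% ± 0.278 in anti-CD8a (n = 3) and 50.8% ± 0.657 in control (n = 5). The IgG shares overlapped those of control, and every anti-PD-L1 share lay above them. At the other end, Ube2cbp averaged 0.989 TPM and Ube2ql1, a member of the little studied Ube2q branch, 0.2 TPM.

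**Figure D1:**
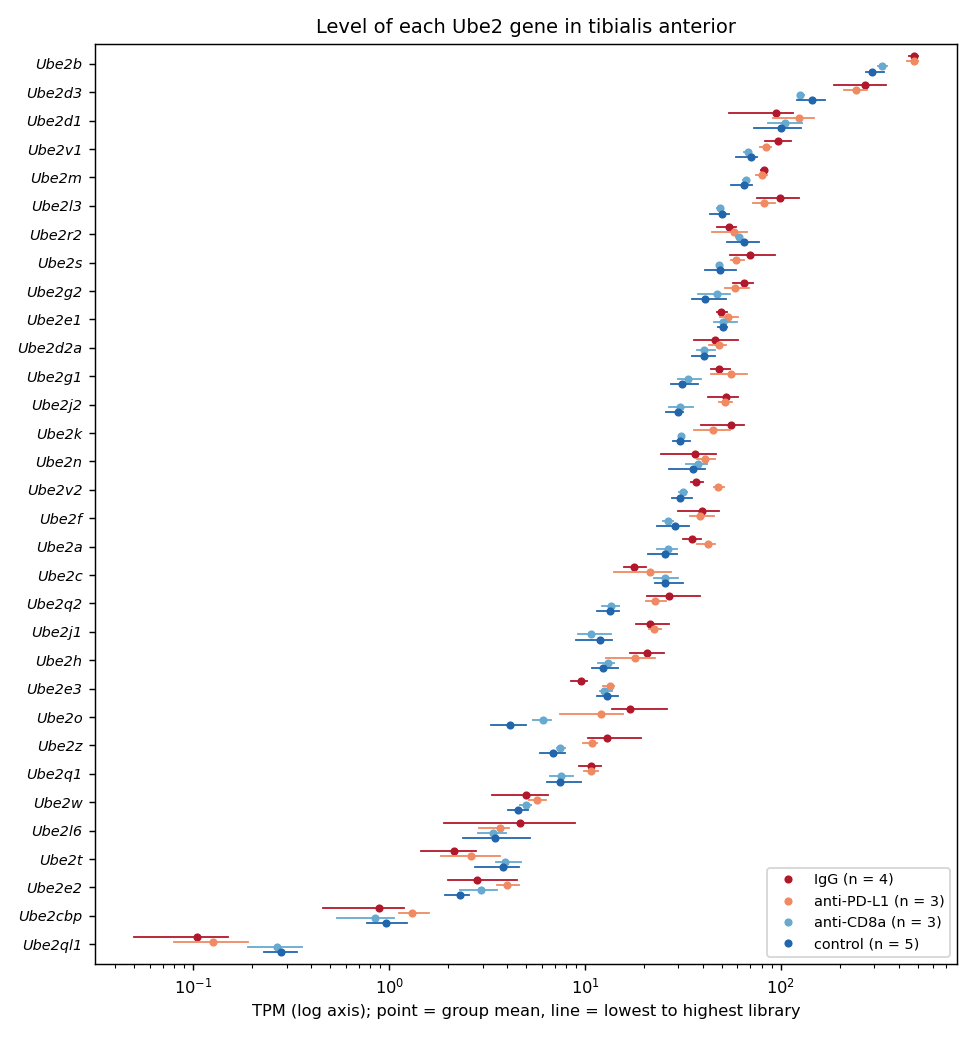
Level of 32 of the 33 genes in TPM on a log axis, ordered by the mean over 15 libraries. Points are group means and lines run from the lowest to the highest library of IgG, anti-PD-L1, anti-CD8a and control. Ube2b leads at a mean of 387 TPM and Ube2ql1 is last at 0.2 TPM.

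Within some pairs of close relatives 1 gene dominated, and other pairs stood nearer each other. Per length, Ube2b stood 12.9 to 15 times above Ube2a, its near-identical relative, in IgG libraries, against 9.87 to 13.0 times in control libraries. The TPM ratio of Ube2d3 to Ube2d2a was 5.19 to 6.51 in IgG libraries, 4.04 to 6.46 in anti-PD-L1, 2.63 to 3.41 in anti-CD8a and 3.04 to 3.90 in control libraries. In that pair the IgG libraries and the anti-PD-L1 libraries all lay above every anti-CD8a and control library. Ube2g1 and Ube2g2, by contrast, stood near each other, with a ratio of 0.678 to 0.841 in IgG and 0.616 to 1.05 in control libraries. The ratio of Ube2d3 to Ube2d1 was 1.62 to 6.29 in IgG and 1.25 to 1.78 in control libraries. That of Ube2v1 to Ube2v2 was 2.22 to 3.12 in IgG and 1.88 to 2.69 in control libraries.

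The first comparison, IgG against control, shows what tumour-bearing mice given an isotype antibody looked like beside tumour-free mice. More members rose than fell: 14 of 33 were higher in IgG muscle (42.4%) and 6 were lower (18.2%), at an adjusted p under 0.05 (edgeR's quasi-likelihood test, Benjamini-Hochberg over all 14372 genes tested). Of all genes tested, 30.2% were higher and 28.4% were lower, so the comparison moved a large part of the transcriptome. The E2s of the endoplasmic reticulum (ER) membrane (Ube2g2, Ube2j1 and Ube2j2) and the large E2 Ube2o rose. Counts of Ube2n, Ube2e3, Ube2d2a and the cell cycle and DNA repair genes Ube2c and Ube2t fell. The median absolute log2 fold change was 0.42 over the members and 0.66 over all genes tested, and 4 members moved more than 2-fold.

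This split of higher and lower members depends on the scaling. Upper-quartile normalization put the median log2 fold change of all genes in IgG against control at -0.27, where TMM put it at -0.02. Then 6 members were higher and 10 lower, where 22.5% of all genes were higher and 38.4% lower. The median of the members was 0.21 under TMM, relative to -0.02 for all genes. Of the 20 called members, 11 stayed called under every alternative in which they were tested. Among them were Ube2o, Ube2q2, Ube2j1, Ube2j2, Ube2z, Ube2c, Ube2e3, Ube2n, Ube2ql1 and Ube2t. With a mean CPM of at least 1 only 32 members were tested, and Ube2ql1 was too low to be among them. No called member changed sign under any alternative in which it was tested.

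**Figure D2:**
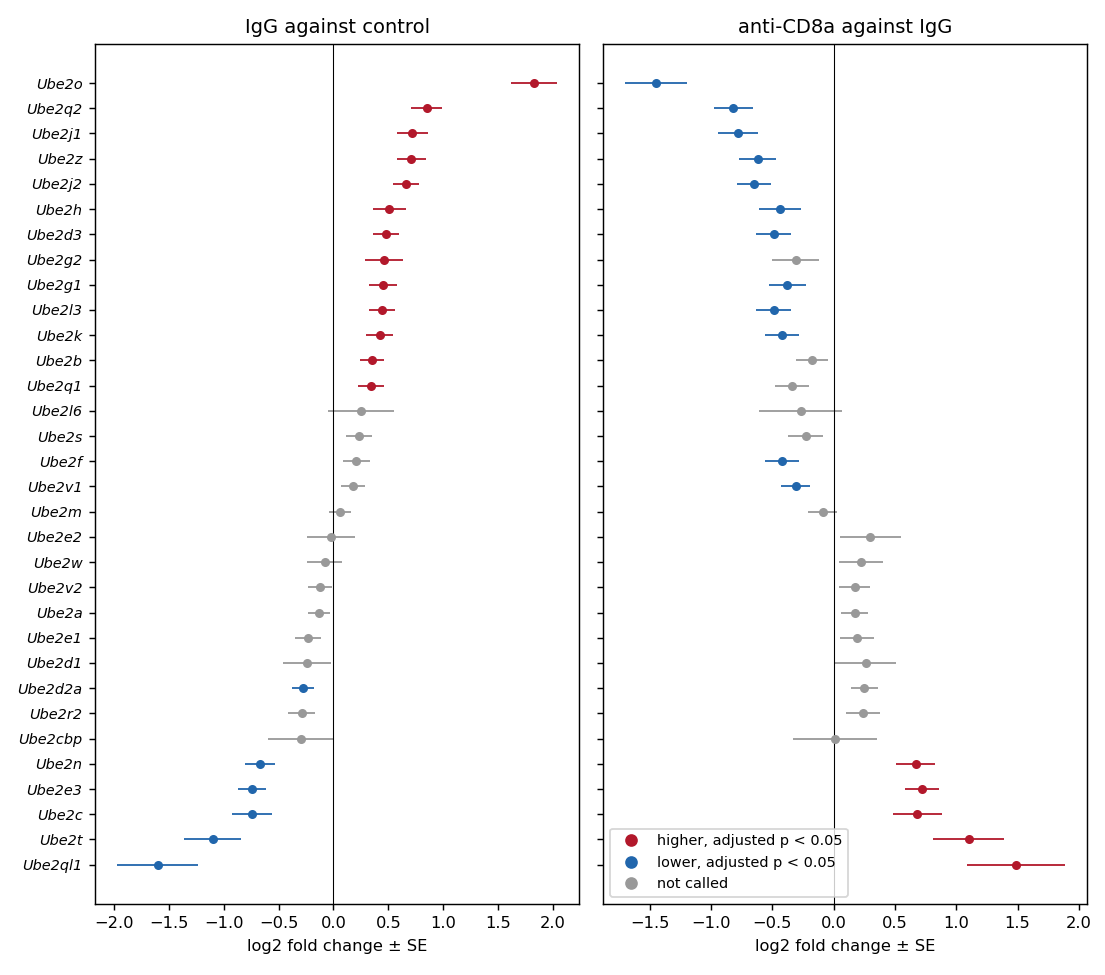
Log2 fold change ± SE of 32 of the 33 genes in IgG against control (left) and in anti-CD8a against IgG (right), both in the order of the left panel. Red and blue mark genes called higher and lower at an adjusted p under 0.05, and grey marks the rest. In IgG against control 13 of these are red and 6 blue, and in anti-CD8a against IgG 5 are red and 12 blue. The panels share the IgG libraries.

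Ube2o had the largest rise. It is an unusually large enzyme that acts as E2 and E3 at once and is known for clearing ribosomal proteins from maturing red blood cells. It had 60.4, 52.5, 61.1 and 93.2 CPM in IgG libraries, 28.5, 55.9 and 45.3 CPM in anti-PD-L1, 23.9, 26.8 and 22.8 CPM in anti-CD8a, and 16.4, 23.0, 23.6, 15.3 and 15.6 CPM in control libraries. Every IgG library lay above every control and anti-CD8a library, and 2 of the 3 anti-PD-L1 libraries lay between IgG and control. Ube2o was higher in IgG than in control by 1.83 ± 0.21 on the log2 scale (± SE throughout; adjusted p 4.18e-06, edgeR). Markers of red blood cell precursors moved with it in this comparison: all 6 tested of 7 in the tables were higher in IgG, and their summed level was 386 to 2679 CPM in IgG, 60.6 to 1081 CPM in anti-PD-L1, 441 to 760 CPM in anti-CD8a and 302 to 582 CPM in control libraries. The count of 6 was 3 without IgG replicate 1 and with a replicate block. None of these 7 markers was at 0 in every library of the series. In anti-PD-L1 against control, where Ube2o was also higher, 0 of the 6 were called. Their part in the rise of Ube2o was not tested.

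Of the carriers of ubiquitin-like proteins, Ube2z, which accepts ubiquitin or FAT10 from the E1 Uba6, had 42.8, 36.9, 45.1 and 62.4 CPM in IgG, 32.0, 37.9 and 36.0 CPM in anti-PD-L1, 31.2, 31.7 and 28.4 CPM in anti-CD8a, and 28.7, 28.8, 29.2, 27.7 and 28.6 CPM in control libraries. The IgG and anti-PD-L1 libraries lay above the control libraries, and Ube2z was higher in IgG by 0.71 ± 0.13 (adjusted p 0.000246, edgeR). The NEDD8 carriers did not pass the test. Ube2m had 67, 60.9, 72.3 and 56.2 CPM in IgG, 60.7, 57.9 and 55.5 CPM in anti-PD-L1, 57.1, 66.1 and 57.9 CPM in anti-CD8a, and 62.4, 61.0, 61.0, 67.2 and 55.7 CPM in control libraries. All groups overlapped, and the log2 fold changes in IgG against control were 0.06 ± 0.10 for Ube2m and 0.21 ± 0.12 for Ube2f.

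The ISG15 carrier Ube2l6 was not called either. It had 5.09, 11.2, 2.71 and 4.76 CPM in IgG libraries, against 5.22, 4.77, 3.68, 4.71 and 6.64 CPM in control libraries. The IgG libraries lay both above and below the control range, and the log2 fold change was 0.25 ± 0.30 (adjusted p 0.499, edgeR). Beside it, 8 of 10 tested genes of the ISG15 system and the interferon response were lower in IgG, among them Uba7, the E1 for ISG15, at -1.98 ± 0.42, Ifit3 at -1.90 ± 0.36 and Isg15 itself at -1.79 ± 0.33.

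All 3 E2s of the ER membrane, which serve the degradation of misfolded proteins drawn from the ER, were higher in IgG. Ube2j1 had 80.7, 54.8, 61.4 and 59.1 CPM in IgG, 54.5, 61.3 and 50 CPM in anti-PD-L1, 32.3, 34.1 and 45.3 CPM in anti-CD8a, and 33.5, 38.3, 44.8, 41.7 and 35.5 CPM in control libraries. Ube2j2 had 62.9, 43.8, 59.6 and 51.0 CPM in IgG, 46.4, 51.1 and 42.6 CPM in anti-PD-L1, 32.3, 32.3 and 38.9 CPM in anti-CD8a, and 34.9, 32.9, 34.6, 37.5 and 32.2 CPM in control libraries. For both genes the IgG and anti-PD-L1 libraries overlapped each other and lay apart from the control libraries. The log2 fold changes in IgG against control were 0.72 ± 0.14 for Ube2j1 (adjusted p 0.000433) and 0.66 ± 0.12 for Ube2j2 (adjusted p 0.000235, edgeR). Ube2g2, which builds chains with the ER ligases, averaged 111.9 ± 7.74 CPM in IgG and 81.3 ± 15.4 CPM in control muscle (SD, n = 4 and 5), a log2 fold change of 0.46 ± 0.17 (adjusted p 0.0269, edgeR).

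Ube2q2, an E2 of little studied function, had 80.2, 56.2, 66.8 and 91.9 CPM in IgG, 48.5, 67.4 and 52.4 CPM in anti-PD-L1, 43.5, 41.7 and 40.0 CPM in anti-CD8a, and 43.5, 39.8, 40.4, 42.9 and 38.7 CPM in control libraries. The IgG and anti-PD-L1 libraries all lay above the control libraries, and the anti-CD8a libraries lay within the narrow span of control. Its log2 fold change was 0.85 ± 0.14 (adjusted p 8.81e-05, edgeR). Its relative Ube2q1 rose by less, 0.34 ± 0.12 (adjusted p 0.0263, edgeR).

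**Figure D3:**
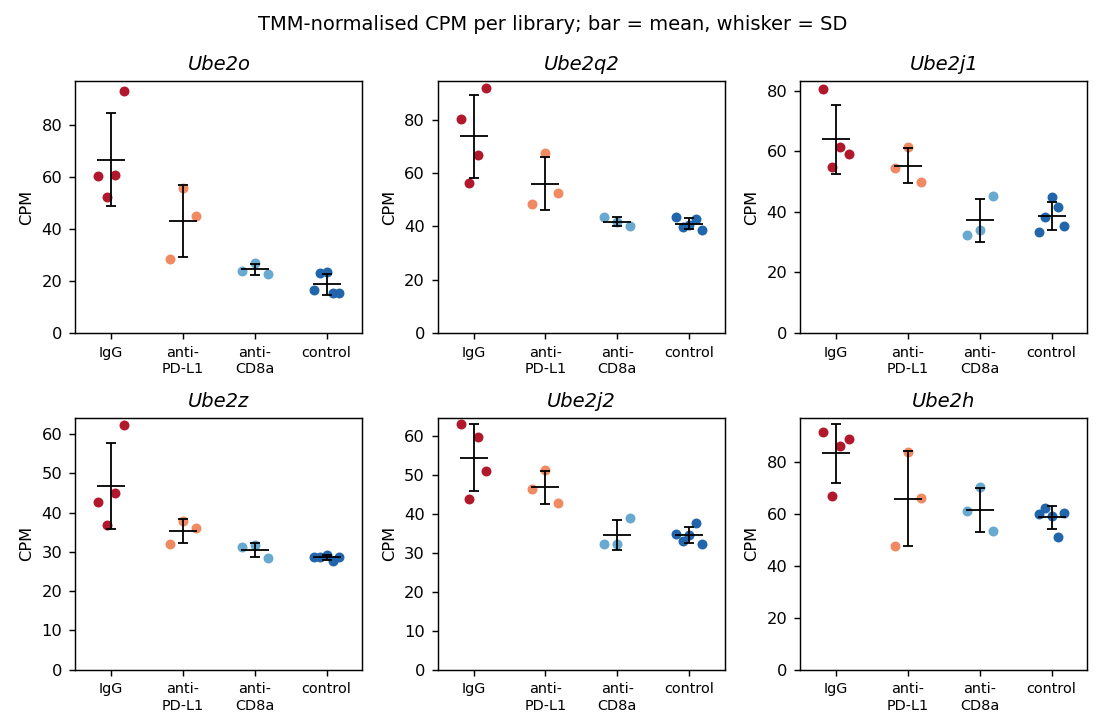
CPM in each library for 6 genes that rose in IgG against control, Ube2o, Ube2q2, Ube2j1, Ube2z, Ube2j2 and Ube2h, in the order IgG, anti-PD-L1, anti-CD8a and control. Points are libraries, bars group means and whiskers SD. In every panel all IgG points lie above all control points, and the anti-CD8a means lie close to control, at 24.5 against 18.8 CPM for Ube2o.

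The promoters of Ube2j1 and Ube2q2, which rose together, each hold the core of the antioxidant response element, the letters TGACNNNGC read on either strand, to which Nfe2l1, a factor that drives proteasome genes, and Nfe2l2 bind. They are shown because these are the 2 called-higher genes with that match. The sequences are RefSeq promoters of build GRCm38.p6, 250 bases before to 50 after the annotated start, on the plus strand, with matches in capitals, at chr4:33031130-33031429 for Ube2j1 and chr9:55149119-55149418 for Ube2q2.
Ube2j1: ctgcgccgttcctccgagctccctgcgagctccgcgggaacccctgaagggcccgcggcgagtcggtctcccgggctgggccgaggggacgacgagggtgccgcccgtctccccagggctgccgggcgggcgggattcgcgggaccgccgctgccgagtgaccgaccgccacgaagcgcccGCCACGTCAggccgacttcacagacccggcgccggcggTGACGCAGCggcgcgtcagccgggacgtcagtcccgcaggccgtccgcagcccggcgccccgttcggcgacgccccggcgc
Ube2q2: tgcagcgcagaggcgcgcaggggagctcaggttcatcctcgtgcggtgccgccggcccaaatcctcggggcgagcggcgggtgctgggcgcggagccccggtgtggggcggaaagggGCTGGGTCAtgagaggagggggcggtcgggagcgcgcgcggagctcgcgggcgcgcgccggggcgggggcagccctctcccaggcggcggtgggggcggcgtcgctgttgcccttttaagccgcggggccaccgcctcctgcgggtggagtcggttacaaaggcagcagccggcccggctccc
RefSeq promoters were matched for 26 of the 33 members. The motif was in 6 of these 26 (23.1%; Ube2e2, Ube2f, Ube2j1, Ube2q2, Ube2ql1 and Ube2v1) and in 14% of 27025 genes, counting a gene once where any of its promoters matched. Of the 6, Ube2ql1 fell in IgG and Ube2e2, Ube2f and Ube2v1 were not called. The other called-higher members with a promoter, Ube2b, Ube2d3, Ube2g1, Ube2h, Ube2j2, Ube2k, Ube2l3, Ube2q1 and Ube2z, did not hold the motif. The FoxO motif GTAAACA was in 1 of 26, Ube2h (3.85%, against 4.05% of genes). The interferon response motif GAAANNGAA was in 1, Ube2d3 (3.85%, against 9.76%), and the nuclear respiratory factor motif GCGCATGC in 1, Ube2k (3.85%, against 3.05%). A match is a run of letters and not a shown binding site.

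Among the E2s that start ubiquitin chains with many ligases, members moved in opposite directions. Ube2d3 had 552.6, 391.4, 507.6 and 488.4 CPM in IgG libraries, 425.7, 435.2 and 373.9 CPM in anti-PD-L1, 339.4, 355.0 and 338.3 CPM in anti-CD8a, and 374.9, 330.8, 322.9, 377.6 and 331.0 CPM in control libraries. Every IgG library lay above every control library, and Ube2d3 was higher by a log2 fold change of 0.48 ± 0.12 (adjusted p 0.00271, edgeR). Its close relative Ube2d2a had 58.5, 54.9, 56.7 and 65.7 CPM in IgG, 56.2, 59.8 and 62.2 CPM in anti-PD-L1, 74.3, 71.5 and 65.0 CPM in anti-CD8a, and 75.3, 71.2, 65.8, 75.3 and 70.6 CPM in control libraries. The highest IgG library lay just under the lowest control library, and Ube2d2a was lower in IgG (-0.28 ± 0.10, adjusted p 0.0211). Ube2d1 was not called: it had 137.2, 130.2, 127.7 and 56.1 CPM in IgG, 95.0, 139.3 and 152.0 CPM in anti-PD-L1, 160.5, 118.9 and 124.9 CPM in anti-CD8a, and 134.0, 141.8, 101.3, 143.2 and 146.4 CPM in control libraries, with 1 low library in IgG and 1 in control. Reads are shared between such near copies, and RSEM had divided reads of Ube2d2a and Ube2d3, but not of Ube2d1, so their opposite signs are uncertain.

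Ube2e3, an E2 with a long N-terminal extension, had 16.9, 15, 16 and 10.6 CPM in IgG, 19.1, 17.8 and 19.8 CPM in anti-PD-L1, 22.6, 25.2 and 24.7 CPM in anti-CD8a, and 26.1, 22.5, 23.7, 25.3 and 24.6 CPM in control libraries. The IgG libraries were lowest, the anti-PD-L1 libraries stood in between without overlap, and the anti-CD8a and control libraries were highest and overlapped. It was lower in IgG than in control by -0.74 ± 0.13 (adjusted p 0.000146, edgeR). The relatives Ube2e1 and Ube2e2, and Ube2w, which marks the N terminus of proteins, were not called, with log2 fold changes of -0.23, -0.02 and -0.08.

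The E2s of the CTLH complex and of RBR ligases were higher in IgG, as were 2 of the 3 chain builders of the cytosol. Ube2h, the E2 of the CTLH complex, had 91.7, 66.7, 86.0 and 88.9 CPM in IgG, 47.6, 83.9 and 66.2 CPM in anti-PD-L1, 61.1, 70.4 and 53.5 CPM in anti-CD8a, and 60, 62.4, 59.1, 51.1 and 60.4 CPM in control libraries. IgG and control did not overlap, although IgG replicate 2 came close to control, and the log2 fold change was 0.51 ± 0.15 (adjusted p 0.00907, edgeR). The red blood cell markers described with Ube2o moved with Ube2h too, and their part was not tested. Ube2l3, which works with RBR and HECT ligases, had 126.6, 139.1, 177.2 and 163.1 CPM in IgG, 108.8, 135.3 and 111.7 CPM in anti-PD-L1, 105.3, 112.5 and 104.8 CPM in anti-CD8a, and 110.1, 119.8, 121.9, 111.9 and 95.0 CPM in control libraries. The lowest IgG library stood just above the highest control library. Ube2g1 had 161.1, 176.9, 165.6 and 151.4 CPM in IgG, 130.9, 205.8 and 161.1 CPM in anti-PD-L1, 140.6, 121.2 and 114.4 CPM in anti-CD8a, and 124.5, 123.2, 109.1, 119.9 and 122.0 CPM in control libraries, and again IgG and anti-PD-L1 lay above control. Ube2l3 was higher in IgG by 0.44 ± 0.12, Ube2g1 by 0.45 ± 0.13 and Ube2k by 0.42 ± 0.12, the last 2 being builders of Lys48-linked chains, the signal for the proteasome (adjusted p 0.0062, 0.00611 and 0.00789, edgeR). Ube2r2, another Lys48 chain builder, was not called at -0.29 ± 0.12 (adjusted p 0.0531).

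Ube2b rose modestly. It had 498.5, 470.8, 551.1 and 431.5 CPM in IgG, 391.8, 475.7 and 446.6 CPM in anti-PD-L1, 457.6, 427.7 and 410.5 CPM in anti-CD8a, and 425.5, 370.2, 383.6, 367.0 and 367.4 CPM in control libraries. The lowest IgG library lay just above the highest control library, and the other 2 groups overlapped both. The log2 fold change in IgG against control was 0.35 ± 0.11 (adjusted p 0.0143, edgeR), and it was 0.10 (adjusted p 0.448) under upper-quartile normalization. The call was also lost without IgG replicate 3, with no filter and with a replicate block. Its relative Ube2a was not called, at -0.13 ± 0.10 (adjusted p 0.286).

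The Lys63 group, whose chains signal in DNA repair and inflammation rather than to the proteasome, did not rise. Ube2n, the enzyme that builds Lys63-linked chains, had 20.2, 35.8, 28.7 and 29.6 CPM in IgG, 33.4, 29.5 and 34.0 CPM in anti-PD-L1, 52.0, 46.1 and 38.8 CPM in anti-CD8a, and 44.5, 45.4, 47.3, 45.2 and 44.2 CPM in control libraries. Every IgG and anti-PD-L1 library lay below every control and anti-CD8a library, and Ube2n was lower in IgG by -0.67 ± 0.14 (adjusted p 0.000839, edgeR). Its inactive partners were not called. Ube2v1 had 136.8, 117.1, 150.1 and 142.9 CPM in IgG, 102.8, 115.1 and 102.6 CPM in anti-PD-L1, 102.0, 118.5 and 110.6 CPM in anti-CD8a, and 116.8, 123.3, 133.8, 120.9 and 110.0 CPM in control libraries. IgG overlapped control, and Ube2v1 had a log2 fold change of 0.18 ± 0.11 and Ube2v2 of -0.12 ± 0.11.

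The fall of Ube2n was seen in counts but not per length. On the TPM scale Ube2n averaged 36.3 ± 9.42 in IgG (n = 4) and 35.6 ± 5.26 in control (n = 5), with ranges that overlapped. The mean transcript length that RSEM assigned to the gene was 963 to 1170 bases in IgG, 1066 to 1249 in anti-PD-L1, 1184 to 1434 in anti-CD8a and 1294 to 1483 in control libraries, so that every IgG library was assigned shorter Ube2n transcripts than every control library. Ube2v2 was also shorter in every IgG than in every control library, with 1195 to 1246 bases in IgG and 1328 to 1383 in control libraries. Its anti-CD8a libraries, at 1352 to 1422 bases, had a mean above that of control. Ube2d2a averaged 46.0 TPM in IgG and 40.7 TPM in control, also without the fall seen in its counts. Over 14362 genes the median log2 ratio of the group means, IgG over control, was 0.21 in TPM and -0.02 in CPM, so a shift of the same sign between the scales was present over all genes. Whether the shorter assignment reflects a change of transcript form was not tested.

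**Figure D4:**
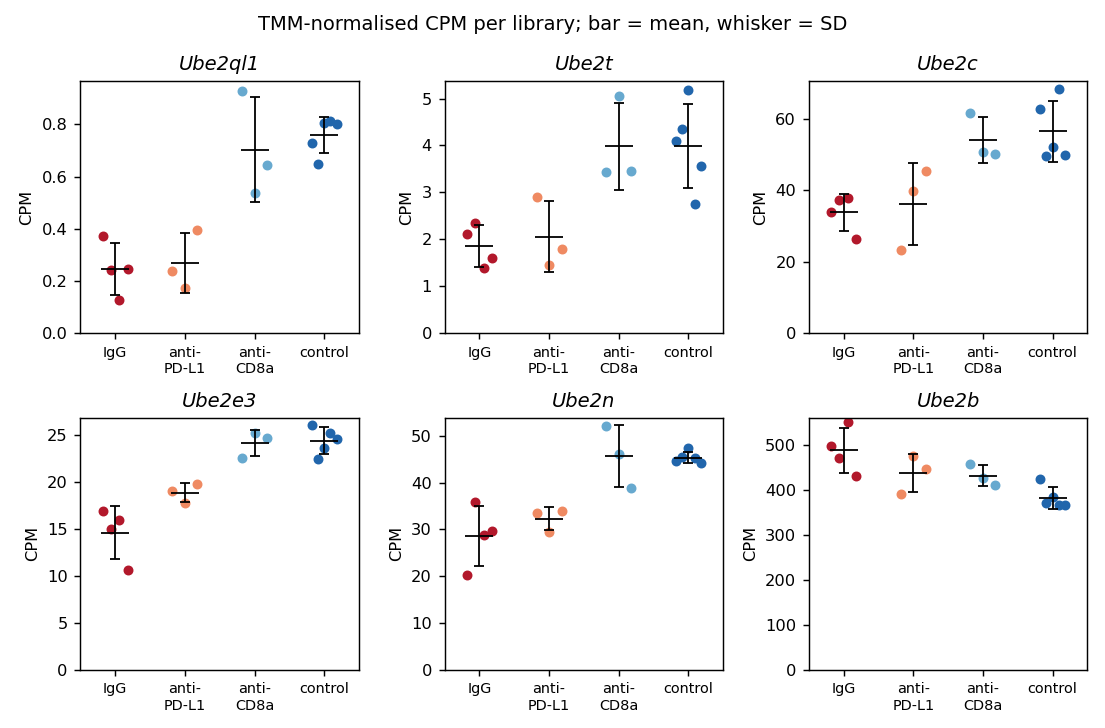
CPM in each library for the 5 genes with the largest falls in IgG against control, and for Ube2b, in the order IgG, anti-PD-L1, anti-CD8a and control. Points are libraries, bars group means and whiskers SD. Ube2n averaged 28.6 CPM in IgG and 45.3 CPM in control, with no overlap, while Ube2b averaged 488 CPM in IgG and 383 CPM in control.

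The cell cycle and DNA repair members Ube2t and Ube2c fell, and Ube2s did not pass the test. Ube2t, which marks FANCD2 in the repair of DNA crosslinks, had 2.11, 2.35, 1.39 and 1.59 CPM in IgG, 2.91, 1.46 and 1.80 CPM in anti-PD-L1, 3.43, 5.05 and 3.46 CPM in anti-CD8a, and 4.09, 4.36, 5.18, 2.76 and 3.57 CPM in control libraries. All IgG libraries lay below all control libraries, and the log2 fold change was -1.10 ± 0.26 (adjusted p 0.00187, edgeR). Markers of proliferating cells were lower with it: 3 of 5 tested of 12 were called lower in IgG (1 in the fit of the 2 groups alone, where 3 could be tested), and the 12 summed to 1.01 to 4.16 CPM in IgG, 5.23 to 6.55 CPM in anti-PD-L1, 5.35 to 8.33 CPM in anti-CD8a and 5.95 to 10.7 CPM in control libraries. None of the 12 was at 0 in every library. Macrophage markers (6 of 7 tested lower and 1 higher) summed to 49.0 to 90.6 CPM in IgG and 78.9 to 147.9 CPM in control libraries. Markers of fibro-adipogenic progenitors, connective tissue cells of muscle, were lower in 5 of 6 and summed to 493 to 687 CPM in IgG and 831 to 1197 CPM in control libraries. The part of these cells in the fall of Ube2t was not tested, and in bulk muscle fewer cells of a type cannot be told apart from less RNA per cell.

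Ube2c starts chains for the anaphase-promoting complex (APC/C) in dividing cells. It had 33.8, 37.3, 37.8 and 26.4 CPM in IgG, 23.2, 39.9 and 45.5 CPM in anti-PD-L1, 61.6, 50.8 and 50.1 CPM in anti-CD8a, and 62.9, 49.6, 52.3, 68.4 and 49.8 CPM in control libraries. Both tumour-bearing groups given IgG or anti-PD-L1 lay below control without overlap, and the log2 fold change in IgG against control was -0.74 ± 0.18 (adjusted p 0.00238, edgeR). The level of Ube2c was several times the sum of all 12 proliferation markers. In the GENCODE M21 annotation, exons of Ube2c overlap 592 bases of exons of Tnnc2 on the opposite strand, the gene of fast troponin C, whose mean count was 116363 against 866 for Ube2c. RSEM assigned 95.2% to 100% of Ube2c to the longer of 2 transcripts (2191 and not 967 bases). Counts of Ube2c were 0.757% to 0.842% of those of Tnnc2 in IgG, 0.724% to 0.769% in anti-PD-L1, 0.736% to 0.773% in anti-CD8a and 0.693% to 0.743% in control libraries. Relative to Tnnc2, Ube2c was therefore higher in every IgG library than in every control library, while in CPM it was lower. The libraries came from a directional kit, but use of the strand in counting is not given in the sources used here, so reads of the 2 genes cannot be told apart. Ube2s, which extends chains on the same complex, had a log2 fold change of 0.23 ± 0.12 (adjusted p 0.115) and overlaps Rpl28 in 183 exonic bases on the opposite strand.

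Ube2c and Ube2t are known cell cycle genes, whose promoters often carry CCAAT boxes bound by the factor NF-Y. Both are shown because their counts were lower in IgG and their promoters hold several such boxes. Of the 6 members called lower, 4 were matched to a promoter. The letters CCAAT, read on either strand, are in capitals in these RefSeq promoters of build GRCm38.p6, on the plus strand at chr2:164769679-164769978 for Ube2c and chr1:134962315-134962614 for Ube2t.
Ube2c: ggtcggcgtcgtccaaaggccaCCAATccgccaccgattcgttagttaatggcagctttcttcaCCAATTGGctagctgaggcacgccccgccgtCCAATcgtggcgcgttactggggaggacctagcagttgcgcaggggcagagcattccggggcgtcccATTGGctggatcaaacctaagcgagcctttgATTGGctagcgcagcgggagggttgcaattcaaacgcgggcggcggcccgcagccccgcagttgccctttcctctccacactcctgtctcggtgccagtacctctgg
Ube2t: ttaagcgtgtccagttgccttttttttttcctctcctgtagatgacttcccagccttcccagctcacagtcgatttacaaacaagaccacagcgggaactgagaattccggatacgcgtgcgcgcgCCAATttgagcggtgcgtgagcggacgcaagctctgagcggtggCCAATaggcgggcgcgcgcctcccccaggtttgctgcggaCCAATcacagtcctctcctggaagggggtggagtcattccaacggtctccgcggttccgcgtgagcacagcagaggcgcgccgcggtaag
CCAAT was in 6 of the 26 members with a promoter (23.1%; Ube2c, Ube2d3, Ube2e1, Ube2f, Ube2l3 and Ube2t), against 41.1% of genes. Of these 6, Ube2d3 and Ube2l3 rose in IgG, so the letters did not separate members that rose from members that fell.

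Ube2ql1 had the largest fall but rests on very few reads. It had rounded counts of 6, 4, 2 and 4 in IgG, 5, 4 and 9 in anti-PD-L1, 17, 10 and 13 in anti-CD8a, and 13, 11, 14, 15 and 18 in control libraries. The corresponding levels were 0.126 to 0.372 CPM in IgG and 0.648 to 0.811 CPM in control, close to the 0.134 to 0.189 CPM that a count of 3 gives at these depths. The groups did not overlap, and the fitted log2 fold change was -1.60 ± 0.37 (adjusted p 0.00147, edgeR). Ube2cbp, also low, was not called (-0.30 ± 0.30).

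Summed over the 33 genes, the family level was 2776 ± 191 CPM in IgG (n = 4), 2448 ± 240 in anti-PD-L1 (n = 3), 2328 ± 101 in anti-CD8a (n = 3) and 2287 ± 77.7 in control (n = 5). Without Ube2b the sums were 2288 ± 158 CPM in IgG, 2009.5 ± 199.9 in anti-PD-L1, 1896 ± 80.8 in anti-CD8a and 1904 ± 65.1 in control. Every IgG sum in CPM lay above every control sum, and the mean anti-CD8a sum lay within 1 SD of control. The place of anti-PD-L1 depended on the scale. Summed TPM was 1939 ± 183 in IgG, 1902 ± 114 in anti-PD-L1, 1351 ± 63.8 in anti-CD8a and 1323 ± 128 in control, so that anti-PD-L1 lay with IgG and above every control library. As a share of all counts, before TMM scaling, the 33 genes took 0.247% to 0.279% in IgG libraries, 0.262% to 0.281% with anti-PD-L1, 0.223% to 0.238% in anti-CD8a and 0.210% to 0.248% in control libraries, and here IgG and control just overlapped.

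The genes around the E2s in the relay, taken from lists, changed too. All 8 tested ligases that pair with Ube2a and Ube2b were higher in IgG than in control, with a median log2 fold change of 0.96. They were led by Ubr4 at 1.98 ± 0.17, Ubr2 at 1.23 ± 0.16 and Ubr1 at 1.05 ± 0.12, ligases that read the N-degron. Under upper-quartile normalization 7 of the 8 remained higher. Of the 4 ubiquitin genes, 3 were higher, among them Ubb (2.05 ± 0.20) and Rps27a (0.46 ± 0.17). Of 7 muscle ubiquitin ligases 5 were higher and 1 was lower. Trim63 averaged 4790 ± 813 CPM in IgG and 521 ± 422 CPM in control (3.20 ± 0.45). Fbxo32 averaged 4057 ± 646 CPM in IgG and 465 ± 113 CPM in control (3.12 ± 0.25), and Fbxo31 rose by 2.0 ± 0.20.

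Among E1 enzymes 4 of 8 were higher and 3 lower. Uba1, which activates ubiquitin, rose by 0.71 ± 0.11, while Uba7 fell and Uba6, the E1 of Ube2z, fell by -1.02 ± 0.31. Of 8 tested E2-like genes outside the Ube2 symbols, Birc6, a giant E2 that blocks cell death, was higher at 1.46 ± 0.17 with 1 other, and 4 were lower, among them Aktip at -1.15 ± 0.16 and the autophagy E2 Atg10 at -0.98 ± 0.20. Of 9 ubiquitin-like modifiers 4 were higher, with Ubl3 at 0.92 ± 0.14 and Ufm1 at 0.45 ± 0.13, and Isg15 was lower. Under upper-quartile normalization the split turned to 1 higher and 4 lower for the modifiers, and to 2 higher and 4 lower for the E1 enzymes. In a fit of the 2 groups alone, 2 of the E2-like genes were lower.

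Partners of single E2s are given by list. Of 13 tested partners of the ER E2s 8 were higher and 2 lower, with Os9 at 1.39 ± 0.17 and Syvn1 at 1.20 ± 0.17, against Rnf5 at -1.66 ± 0.24. Of 11 genes of the CTLH complex 8 were higher and Gid4, its substrate receptor, was lower at -1.30 ± 0.14, with Ranbp9 at 2.98 ± 0.33 and Ranbp10 at 1.64 ± 0.15. Under upper-quartile normalization 5 of the 11 were higher. Of 11 SUMO ligases and proteases 6 were higher, led by Ranbp2 at 1.90 ± 0.18, Pias4 at 1.83 ± 0.21 and Senp6 at 1.28 ± 0.16, and none was lower, although 1 was lower under upper-quartile normalization. Of 14 RBR ligases and LUBAC genes, partners of Ube2l3, 7 were higher and 2 lower, with Rnf216 at 2.11 ± 0.25 and Arih2 at 1.37 ± 0.17. The 9 partners of Ube2n were mixed, with 2 higher (Traf6 at 1.03 ± 0.21) and 3 lower (Hltf at -0.96 ± 0.25 and Rnf168 at -0.63 ± 0.15).

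Of 16 APC/C genes, partners of Ube2c and Ube2s, 5 were higher and 2 lower, with Anapc16 at 1.67 ± 0.18, Anapc7 at 1.49 ± 0.21 and Cdc27 at 0.83 ± 0.15. Upper-quartile normalization turned that split to 3 higher and 6 lower. Of 16 neddylation genes and cullins 6 were higher and 2 lower, with Cul4b at 1.98 ± 0.22, Cul1 at 1.61 ± 0.15 and the neddylation cofactor Dcun1d2 at -1.56 ± 0.21, and the split turned to 5 higher and 7 lower under upper-quartile normalization. These lists share the background of the comparison, in which 30.2% of all genes were higher and 28.4% lower.

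**Figure D5:**
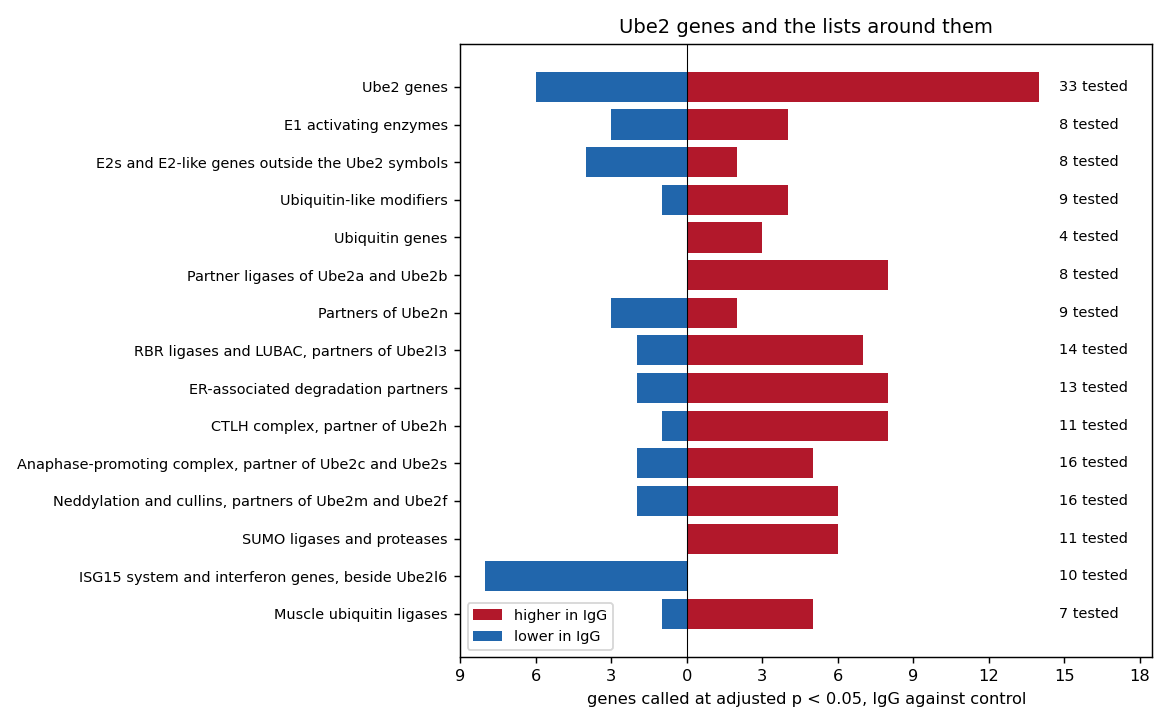
Number of genes called higher (right of 0) and lower (left of 0) in IgG against control, for the 33 Ube2 genes and 14 lists of E1s, modifiers and partners, with the number tested at the right. The Ube2a and Ube2b ligases have 8 higher and 0 lower of 8, and the ISG15 list 0 higher and 8 lower of 10.

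Anti-CD8a against IgG shows how muscle of tumour-bearing mice differed when the antibody was directed at CD8a. Here 13 of 33 members were lower in anti-CD8a (39.4%) and 5 higher (15.2%), while 24.8% of all genes were lower and 23.2% higher. Because this comparison and the first share the IgG libraries, their values are not independent. Under upper-quartile normalization, which put the median of all genes at 0.25, where TMM put it at 0.02, 6 members were lower and 10 higher, with 17.7% of all genes lower and 32.2% higher.

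Ube2o averaged 24.5 ± 2.08 CPM in anti-CD8a and 66.8 ± 18.0 CPM in IgG (SD, n = 3 and 4), a log2 fold change of -1.45 ± 0.25 (adjusted p 0.000256, edgeR). The 2 groups did not overlap. Lower too were Ube2q2 at -0.82 ± 0.16, Ube2j1 at -0.78 ± 0.16, Ube2j2 at -0.65 ± 0.14 and Ube2z at -0.62 ± 0.15. Smaller falls that passed the test were those of Ube2d3 and Ube2l3 (both -0.49 ± 0.14), Ube2f and Ube2k (both -0.42 ± 0.14), Ube2g1 (-0.38 ± 0.15), Ube2h (-0.44 ± 0.17) and Ube2v1 (-0.31 ± 0.12). In the last 2 the libraries of the groups overlapped, the adjusted p lay just under the threshold, and the call was lost under 11 of 15 alternatives for Ube2h and 12 of 15 for Ube2v1.

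The 5 members that were higher in anti-CD8a than in IgG were Ube2ql1 at 1.49 ± 0.40, Ube2t at 1.10 ± 0.29, Ube2e3 at 0.72 ± 0.14, Ube2c at 0.68 ± 0.20 and Ube2n at 0.67 ± 0.16. In all 5 every anti-CD8a library lay above every IgG library in CPM. The transcript length assigned to Ube2n was 1184 to 1434 bases in anti-CD8a and 963 to 1170 in IgG libraries. Counts of Ube2c were 0.736% to 0.773% of those of Tnnc2 in anti-CD8a and 0.757% to 0.842% in IgG libraries. The limits given above for these 2 genes therefore hold here too. Ube2b did not pass the test, with 432 ± 23.9 CPM in anti-CD8a and 488 ± 50.3 CPM in IgG (-0.18 ± 0.13, adjusted p 0.277). Of the 18 called members, 10 stayed called under every alternative in which they were tested. Among them were Ube2o, Ube2q2, Ube2j1, Ube2j2, Ube2z, Ube2e3, Ube2n, Ube2ql1 and Ube2t. Ube2ql1 was too low to be tested with a mean CPM of at least 1. The fit of the 2 groups alone also tested 32 of the 33 members. The call of Ube2c was lost without anti-CD8a replicate 1 (adjusted p 0.053).

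The partners differed in the same comparison. All 8 ligases of Ube2a and Ube2b were lower in anti-CD8a than in IgG, with Ubr4 at -1.90 ± 0.21, and 7 of the 8 under upper-quartile normalization. Lower were also 8 of 13 partners of the ER E2s, 7 of 14 RBR and LUBAC genes, 6 of 11 CTLH genes and 6 of 11 SUMO ligases and proteases. Ubb was lower (-2.01 ± 0.24), as were Trim63, at 317 ± 68.5 CPM in anti-CD8a and 4790 ± 813 CPM in IgG (-3.92 ± 0.57), and Fbxo32 (-3.06 ± 0.31). The CTLH count was 3 under upper-quartile normalization and without anti-CD8a replicate 3. Of the ISG15 and interferon list 7 of 10 were higher in anti-CD8a, and 4 with a replicate block. Cell type markers moved as well. Of the 6 fibro-adipogenic progenitor markers 4 were higher, with sums of 720 to 791 CPM in anti-CD8a and 493 to 687 CPM in IgG libraries. Of 7 macrophage markers 4 were higher and 1 lower (1 and 1 without anti-CD8a replicate 3), with sums of 52.7 to 190.2 CPM in anti-CD8a and 49.0 to 90.6 CPM in IgG libraries. Of 8 T cell markers 2 could be tested, and both were higher. Only 1 was higher without IgG replicate 1, 3 or 4 or without any 1 anti-CD8a library. The 8 summed to 0.817 to 2.18 CPM in anti-CD8a and 0.063 to 0.482 CPM in IgG libraries. At 0 were 3 of the 8 in every anti-CD8a library and 1 in every IgG library. Of the 6 tested red blood cell markers 1 was called lower, Alas2 at -1.98 ± 0.73, with 0 to 5 called lower across the alternatives (5 without IgG replicate 3 and 0 without IgG replicate 1 or 2 or any anti-CD8a library). Of 5 tested proliferation markers 2 were higher, with 0 to 2 across the alternatives (0 without IgG replicate 3 or anti-CD8a replicate 1). The part of these cells in the members' differences was not tested.

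Anti-CD8a against control compares the CD8a-directed group with tumour-free mice, and no member was called in either direction (edgeR). The background was as empty, with 0.00696% of all genes higher and 0.00696% lower, which is 1 gene each way. No member had an unadjusted p under 0.05, and DESeq2 called none. The log2 fold changes of the members lay between -0.29 and 0.38, with a median of -0.01 and a median absolute value of 0.04. The smallest p was that of Ube2o, with 24.5 ± 2.08 CPM in anti-CD8a and 18.8 ± 4.14 CPM in control (0.38 ± 0.23, adjusted p 0.764). The next was Ube2f, which had 63.5, 54.0, 46.2 and 56.5 CPM in IgG and 41.4, 57.3 and 43.5 CPM in anti-PD-L1, with 41.9, 44.6 and 37.0 CPM in anti-CD8a and 46.1, 47.0, 45.7, 50.8 and 48.0 CPM in control libraries. The anti-CD8a and control libraries lay apart, with anti-CD8a lower, yet the difference was small (-0.21 ± 0.13, adjusted p 0.798). A missed threshold does not show equal levels: standard errors were 0.11 to 0.34 on the log2 scale.

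Anti-PD-L1 against IgG compares checkpoint blockade with the isotype antibody in tumour-bearing mice. No member was called (edgeR), where 3.96% of all genes were higher and 1.54% lower, and 8 members had an unadjusted p under 0.05. Under DESeq2 3 members were lower, Ube2v1 and Ube2z among them, and 0 higher, where 6.33% of all genes were lower and 6.1% higher. Ube2v1 averaged 107 ± 7.14 CPM in anti-PD-L1 and 137 ± 14.2 CPM in IgG. These groups did not overlap, although anti-PD-L1 replicate 2 and IgG replicate 2 nearly met (-0.36 ± 0.12, adjusted p 0.0872).

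This comparison turned on 2 libraries. Without IgG replicate 2, 5 members were lower in anti-PD-L1 and 0 higher, where 8.05% of all genes were lower and 10.1% higher. Without anti-PD-L1 replicate 2 the members' counts were again 5 and 0, where 8.79% of all genes were lower and 9.71% higher. Without both, a setting chosen after the data were seen, 9 members were lower and 0 higher, where 13.6% of all genes were lower and 15.2% higher. Among those 9 were Ube2h, Ube2k, Ube2l3, Ube2o, Ube2q2, Ube2s, Ube2v1 and Ube2z. Of 7 tested macrophage markers 6 were higher in anti-PD-L1, with a summed level of 142 to 514 CPM in anti-PD-L1 and 49.0 to 90.6 CPM in IgG libraries. Of the 6 fibro-adipogenic progenitor markers 4 were higher. Their part in any difference between the members was not tested.

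Anti-PD-L1 against control gave 6 members higher and 6 lower of 33 (18.2% each), where 20.8% of all genes were higher and 13.9% lower. Among the higher were Ube2o (43.2 ± 13.8 CPM in anti-PD-L1 and 18.8 ± 4.14 CPM in control, 1.20 ± 0.22, adjusted p 0.00094), Ube2j1 (0.51 ± 0.15), Ube2g1 (0.47 ± 0.14), Ube2q2 (0.45 ± 0.15) and Ube2j2 (0.44 ± 0.13). Lower were Ube2ql1 (-1.48 ± 0.38), Ube2t (-0.96 ± 0.28), Ube2c (-0.65 ± 0.20), Ube2n (-0.49 ± 0.15), Ube2r2 (-0.38 ± 0.13) and Ube2e3 (-0.37 ± 0.14). Of these 12, Ube2t had libraries that overlapped between the groups in CPM, and the other 11 did not. The transcript length assigned to Ube2n was 1066 to 1249 bases in anti-PD-L1 and 1294 to 1483 in control libraries. Counts of Ube2c were 0.724% to 0.769% of those of Tnnc2 in anti-PD-L1 and 0.693% to 0.743% in control libraries. The falls of these 2 genes are falls in counts, with the limits given above. Upper-quartile normalization gave 2 members higher and 9 lower, where 14.8% of all genes were higher and 18.5% lower. Library size alone gave 9 higher and 3 lower, where 27.4% of all genes were higher and 8.06% lower. Ube2o was the 1 call that held under every alternative. Without anti-PD-L1 replicate 2, 1 member was higher and 1 lower.

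Anti-PD-L1 against anti-CD8a, both in tumour-bearing mice, gave 4 members higher and 3 lower of 33 (12.1% and 9.09%), where 12.1% of all genes were higher and 7.64% lower. Among those higher in anti-PD-L1 were Ube2o, at 43.2 ± 13.8 CPM in anti-PD-L1 and 24.5 ± 2.08 CPM in anti-CD8a (0.82 ± 0.25, adjusted p 0.0332, edgeR), Ube2j1 (0.57 ± 0.17) and Ube2j2 (0.44 ± 0.15). Lower were Ube2ql1 (-1.36 ± 0.41), Ube2t (-0.95 ± 0.30) and Ube2n (-0.50 ± 0.17). In all 7 the libraries of the groups did not overlap. Upper-quartile normalization gave 1 member higher and 7 lower, where 8.57% of all genes were higher and 10.5% lower. Library size alone gave 7 higher and 0 lower, where 19.2% of all genes were higher and 4.26% lower. No call held under every alternative: without anti-PD-L1 replicate 2, anti-CD8a replicate 1 or anti-CD8a replicate 2, none of the 33 was called in either direction.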

How the data were processed

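RNA of the tibialis anterior was sequenced in 15 libraries. The submitters' processing notes name Trim Galore, STAR 2.7.9a and RSEM 1.3.3. The libraries were made with a directional kit, per the labels' protocols. The genome build, the annotation and the use of strand in counting are not given in the sources used here. The deposited values are RSEM expected counts and TPM for 55416 genes, per the file headers. Gene identifiers were matched to symbols for 52083 genes, and the 3333 without a symbol held at most 0.386% of the counts of a library. RSEM divides reads shared between genes: 14 of the 33 Ube2 genes had a value that was not whole (by more than 1e-06) in at least 1 library, and 19 had none.

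Expected counts were rounded to whole numbers. The 4 groups were fitted together with edgeR 4.0.16 (R 4.3.3): TMM normalization, filterByExpr by group (14372 genes left), quasi-likelihood fit with 11 residual degrees of freedom and F test, and Benjamini-Hochberg adjustment over all genes tested in each of 6 comparisons. A gene was called at an adjusted p under 0.05. Levels are TMM-normalised CPM, with SD over libraries, and each log2 fold change stands with the standard error derived from its F value. A count of 3, the upper limit that a count of 0 allows, is 0.134 to 0.189 CPM at these depths and covers counting error only. Sums of lists have no test. TPM was used to set genes side by side and was not tested.

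The replicate numbers did not pair the libraries: over 19 pairs of the same number in different groups, deviations from the group means correlated at -0.35 to 0.18, with 3 above 0.1. Alternatives were upper-quartile and library-size scaling, DESeq2 1.42.0, no filter, a mean CPM of at least 1, a fit of the 2 groups alone, a replicate block and each library left out. The fit was tested on simulated data with 200 of 14372 genes changed in each comparison. Of changes of 1 log2 unit it recovered 36% to 61% by comparison, and of changes of 2 log2 units 78% to 88%. Of its calls 3.1% to 7.5% were false. Changes of 2-fold or less, and some of 2 log2 units, can therefore be missed. The simulation changed far fewer genes than were called in IgG against control (30.2% higher and 28.4% lower). Its rates may therefore not hold in comparisons that moved many genes. Values in every library are given for the members of largest change in each comparison (up to 8 each way in IgG against control and anti-CD8a against IgG, up to 4 in the others), for the 2 of smallest p where none was called, and for the 5 of highest TPM, and each partner list names up to 3 called genes of largest change. Members, lists and these rules were chosen with earlier results of these data known. The results of 1 member, which stays in all counts and sums, and of 2 listed genes are not reported here. Ube2l6, and the transcript lengths of Ube2n and Ube2v2, were picked out after their values were seen. Exon overlaps come from GENCODE M21, which holds every transcript the tables list for the members. Promoter motifs were searched on both strands of RefSeq promoters (GRCm38.p6).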

Additional observations from a re-analysis of the deposited data

Results flagged for a closer look

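Of 66 sets of 4 or 5 libraries, 1 for each member in IgG and in control, 4 held a library that stood apart from the rest by Dixon's test. Chance alone gives about 1 in 20. Ube2d1 had 56.1 CPM in IgG replicate 4, where the other IgG libraries had 127.7 to 137.2 CPM. Ube2d1 also had 101.3 CPM in control replicate 3, where the others had 134.0 to 146.4 CPM. Ube2r2 had 150.9 CPM in IgG replicate 3, against 118.8 to 119.8 CPM in the other IgG libraries. Ube2b had 425.5 CPM in control replicate 1, against 367.0 to 383.6 CPM in the other control libraries.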

How the results depend on the processing

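Counts of called members moved by over 1.5 times in these cases, each given as members higher and lower in the first-named group. Upper-quartile normalization gave 6 and 10 in IgG against control, 10 and 6 in anti-CD8a against IgG, 2 higher in anti-PD-L1 against control, and 1 and 7 in anti-PD-L1 against anti-CD8a. Library size alone, under which the median of all genes was 0.22 in anti-PD-L1 against IgG and 0.21 in anti-PD-L1 against control (0.01 and 0.05 with TMM), gave 2 higher in anti-PD-L1 against IgG, 3 lower in anti-PD-L1 against control, and 7 and 0 in anti-PD-L1 against anti-CD8a. DESeq2 gave 3 lower in anti-PD-L1 against IgG and 5 lower in anti-PD-L1 against anti-CD8a. Without a filter, 8 were lower in anti-CD8a against IgG and 0 in anti-PD-L1 against anti-CD8a. A fit of the 2 groups alone gave 8 lower in anti-CD8a against IgG, and 1 and 0 in anti-PD-L1 against anti-CD8a. The replicate block, although the numbers did not pair the libraries (6 of 38 checks matched a library best with its own number), gave 8 lower in anti-CD8a against IgG, 2 and 2 in anti-PD-L1 against control, and 0 and 0 in anti-PD-L1 against anti-CD8a. Without replicate 2 of IgG and of anti-PD-L1, a setting added after the data were seen, 9 were lower in anti-PD-L1 against IgG, 3 higher and 2 lower in anti-PD-L1 against control, and 1 higher and 0 lower in anti-PD-L1 against anti-CD8a. Leaving out each library in turn gave 12 to 15 higher and 5 to 7 lower in IgG against control, 0 higher and 0 to 5 lower in anti-PD-L1 against IgG, 4 to 6 higher and 8 to 13 lower in anti-CD8a against IgG, 1 to 6 higher and 1 to 5 lower in anti-PD-L1 against control, 0 of either in anti-CD8a against control, and 0 to 3 higher and 0 to 2 lower in anti-PD-L1 against anti-CD8a. The count of 8 in anti-CD8a against IgG came without IgG replicate 1, and that of 3 lower in anti-PD-L1 against control without anti-PD-L1 replicate 1. The causes of these moves were not tested. For single named genes, 1012 of the values under an alternative stayed on the same side of the threshold, 104 lost the call and 11 gained it. Of values called in the main fit or in the alternative, 0 changed sign. Changes of sign were not counted where neither fit called the gene. Depth limits Ube2ql1 most, at 2 to 18 counts a library.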

Other observations

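Of the 3 Ube2 pseudogenes, Ube2l3-ps1 was listed at 0 in every library. Ube2d-ps averaged 23.4 ± 2.37 CPM in IgG (n = 4), 21.1 ± 1.03 in anti-PD-L1 (n = 3), 23.3 ± 1.01 in anti-CD8a (n = 3) and 25.6 ± 4.26 in control (n = 5). Ube2n-ps1 averaged 0.994 ± 0.499 CPM in IgG, 1.16 ± 0.256 in anti-PD-L1, 1.32 ± 0.395 in anti-CD8a and 1.46 ± 0.434 in control. Neither was called in any of the 6 comparisons (edgeR), with log2 fold changes in IgG against control of -0.13 ± 0.13 for Ube2d-ps and -0.55 ± 0.34 for Ube2n-ps1. Reads of such copies can be split with their parent genes.

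The mean transcript length that RSEM assigned differed between IgG and control without overlap in 3 of the 33 genes. Among them, it was shorter in IgG for Ube2n and Ube2v2.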
